A study of Caenorhabditis elegans with 8 samples.

Results

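The synaptic vesicle release genes of Caenorhabditis elegans described here are 10 protein-coding genes, chosen by their sequence names, out of 19983 protein-coding genes. They are snb-1 (T10H9.4), unc-64 (F56A8.7), ric-4 (Y22F5A.3), unc-18 (F27D9.1), unc-13 (ZK524.2), unc-10 (T10A3.1), rab-3 (C18A3.6), snt-1 (F31E8.2), unc-104 (C52E12.2) and unc-31 (ZK897.1). The measurement was chromatin immunoprecipitation followed by sequencing (ChIP-seq) with an antibody to AMA-1, the large catalytic subunit of RNA polymerase II. Embryos of strain KW2309, from the 1-cell to the 350-cell stage, had received either the L4440 control RNAi or RNAi of sig-7, the gene of a nuclear cyclophilin. There were 2 ChIP and 2 input libraries per condition, and the labels give neither the genotype of KW2309 nor whether the replicates came from separate cultures.

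A synaptic vesicle fuses with the plasma membrane when SNARE proteins on both membranes zip together. Synaptobrevin sits on the vesicle, and syntaxin and SNAP-25 sit on the target membrane. SM and priming proteins prepare this complex, a Rab GTPase and a RIM scaffold hold vesicles at the active zone, and synaptotagmin couples fusion to calcium. Kinesin-3 carries vesicle precursors down the axon, and CAPS serves the release of dense core vesicles. In the worm these genes are known for their work in differentiated neurons, whose synapses form later in embryogenesis than the stages collected here.

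The values are calls and not signal. A gene has a call of 1 in a condition when a peak overlapped it by 250 bp or 45% of its length in both ChIP replicates. Otherwise the call is 0. A gene with no row in the deposited table is taken as called in neither condition. The calls hold no peak height, depth, position within the gene or value per library, so no difference between conditions could be tested against replicate error. Polymerase in few cells and little polymerase in each of many cells also cannot be told apart in whole embryos.

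Of the 10 genes, 2 had a call of 1 in control embryos and 4 in sig-7(RNAi) embryos. The background share of protein-coding genes called was 22.8% in control and 23.9% in sig-7(RNAi). The genes called in both conditions were unc-64 and unc-31, and those called in sig-7(RNAi) only were snb-1 and unc-104. None of the 10 was called in control only. Over all protein-coding genes, the share called in both conditions was 16.8%, the share called only in control was 6.03%, and that called only in sig-7(RNAi) was 7.05%. The control count thus lay near the background share. The sig-7(RNAi) count was 2 genes above the control count, and no test was made of so few genes. The other 6 genes, ric-4, unc-18, unc-13, unc-10, rab-3 and snt-1, were called in neither condition. They made up 60.0% of the group, against 70.1% of all protein-coding genes called in neither.

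**Figure D1:**
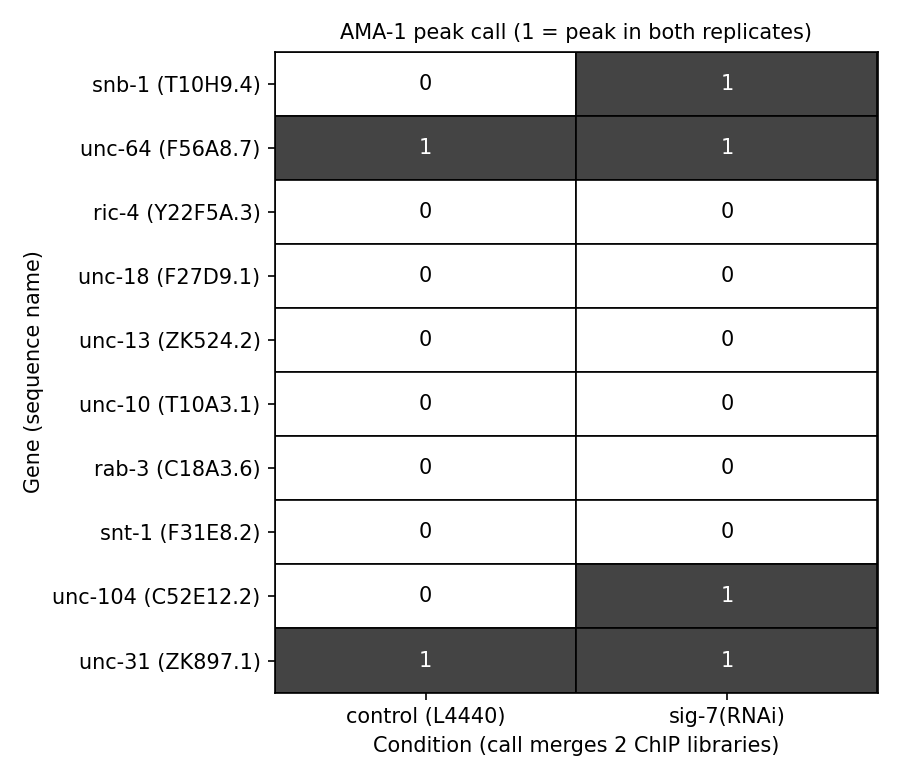
AMA-1 peak calls of the 10 synaptic vesicle release genes (rows, with sequence names) in control and sig-7(RNAi) embryos (columns). A dark cell with 1 marks a peak with the required overlap in both ChIP replicates, and a white cell with 0 marks any other case. The control column has 2 dark cells and the sig-7(RNAi) column has 4.

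The 3 SNARE genes of the synaptic core complex had 3 different patterns. unc-64, which encodes syntaxin, had a call of 1 in control and 1 in sig-7(RNAi). snb-1, which encodes synaptobrevin, had a call of 0 in control and 1 in sig-7(RNAi). ric-4, which encodes SNAP-25, had a call of 0 in both. Of these 3 genes, unc-64 was the only one called in control, and unc-64 and snb-1 were both called in sig-7(RNAi).

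The neighbours of snb-1 included a gene called in both conditions. In the order of genes in the RefSeq gene table (assembly WBcel235), the gene next to snb-1 on one side was syx-18 (T10H9.3), which encodes a syntaxin 18 homologue of the endoplasmic reticulum. syx-18 had a call of 1 in control and in sig-7(RNAi). Next to syx-18 lay T10H9.8, which like snb-1 was called in sig-7(RNAi) only. The other side of snb-1 was without calls, with the ncRNA gene T10H9.10 adjacent and pmp-5 (T10H9.5), a peroxisomal membrane transporter gene, as the nearest protein-coding gene. On that side 7 genes lay between snb-1 and the next called gene, cest-34 (K11G9.1), which was called in control only. The sig-7(RNAi)-only call of snb-1 thus stood in a run of 3 called genes in the sig-7(RNAi) embryos, of which syx-18 alone was also called in control. Of the 1409 protein-coding genes with a sig-7(RNAi)-only call, 557 (39.5%) lay beside or overlapped a gene of any kind called in both conditions, so the setting of snb-1 was a common one. Whether snb-1 and syx-18 shared a peak was not tested, since the table holds no peak positions.

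The syntaxin gene unc-64 lay in a stretch of genes called in both conditions. Its span overlaps that of set-25 (Y43F4B.3), a histone H3 lysine 9 methyltransferase gene, which was called in both. On the other side the ncRNA gene F56A8.10 was not called, and the protein-coding gene beyond it, cpf-2 (F56A8.6), which encodes a cleavage stimulation factor subunit, was called in both. Within 6 genes on either side of unc-64, the kinesin gene klp-19 (Y43F4B.6) and the nucleoporin gene npp-18 (Y43F4B.4) were also called in both. The SNAP-25 gene ric-4 had the opposite setting. Between ric-4 and the nearest called gene there were 11 genes on one side, up to fubl-1 (C12D8.1), and 18 on the other, up to trx-2 (B0024.9). Its adjacent genes, sri-18 (Y22F5A.2) and the piRNA gene 21ur-13262 (Y22F5A.7), had no call, and neither had Y22F5A.11, the nearest protein-coding gene beyond the latter.

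Among the 10 genes, those that regulate assembly of the SNARE complex were called in neither condition, as were 70.1% of all protein-coding genes. unc-18 encodes the SM protein that binds syntaxin, and 8 and 16 uncalled genes separated it from the nearest called genes, pcca-1 (F27D9.5, called in both) and vit-1 (K09F5.2, called in sig-7(RNAi) only). Its direct neighbours, the tRNA gene rte-3 (F27D9.T1) and clik-2 (C53C9.2), had no call, and neither had stn-2 (F27D9.8), the nearest protein-coding gene on the side of rte-3. unc-13 encodes the priming factor that opens syntaxin. Its neighbours C15A11.7 and spe-4 (ZK524.1) had no call, and the nearest called gene, T28F4.1, lay beyond 3 uncalled genes and was called in both. unc-10 encodes RIM, the active zone scaffold that binds RAB-3. It lay between grd-7 (F46H5.6, called in control only) and lron-7 (K03A1.2, called in sig-7(RNAi) only), with 4 uncalled genes on each side. lron-7 was the nearest protein-coding gene on its side, F46H5.11 on the other side had no call, and neither had the adjacent ncRNA genes T10A3.4 and T10A3.2.

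rab-3, the gene of the vesicle GTPase, was uncalled beside genes that were called. Its span overlaps that of damt-1 (C18A3.1), annotated as a DNA N6-adenine methyltransferase gene, which was called in both conditions. Beyond damt-1, zipt-3 (C18A3.2), a zinc transporter gene, was called in both as well. On the other side the ncRNA gene C18A3.13 and the protein-coding gene C18A3.7 had no call, and 7 genes lay between rab-3 and the proneural gene hlh-14 (C18A3.8), which was called in control only. Of the 6 uncalled genes of the group, rab-3 was the only one beside or overlapping a called gene. Over all 14010 uncalled protein-coding genes, 3040 (21.7%) lay beside or overlapped one. The table does not say whether a peak reached into rab-3 by less than the required overlap.

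snt-1, which encodes the calcium sensor synaptotagmin, had a call of 0 in both conditions. Its adjacent genes F31E8.5 and the pseudogene F31E8.6 had no call. On the side of F31E8.6, 13 genes lay between snt-1 and the nearest called gene, the ncRNA gene F31E8.18, called in control only. The nearest protein-coding gene there, egl-27 (C04A2.3), a chromatin regulator gene, was called in both conditions. The nearest called gene on the other side was gldi-2 (T13C2.6), called in control only, with 5 genes in between.

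unc-104, the kinesin-3 that carries synaptic vesicle precursors, had a call of 0 in control and 1 in sig-7(RNAi). Its span overlaps 5 other genes in the gene table, of which the tRNA pseudogene C52E12.t1 alone had a call, again in sig-7(RNAi) only. The tRNA genes C52E12.t2 and C52E12.t3, the ncRNA gene C52E12.8 and the pseudogene C52E12.11 were not called. Neither adjacent protein-coding gene, C15F1.1 or sqv-7 (C52E12.3, a nucleotide sugar transporter gene), was called, and neither was the adjacent lncRNA gene linc-73 (C52E12.10). The call of unc-104 was thus shared with a gene that overlaps its span and not with the protein-coding genes around it. Polymerase at the tRNA pseudogene and polymerase elsewhere on unc-104 cannot be told apart in the calls. Over all protein-coding genes, 289 overlap a tRNA gene or tRNA pseudogene, and 27 of these (9.34%) were called in sig-7(RNAi) only, against the 7.05% given above for all protein-coding genes. Another 59 (20.4%) were called in both, against 16.8%. Of the 105 that were called at all, 62 overlapped a tRNA gene or tRNA pseudogene of the same call category, as unc-104 did.

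unc-31, which encodes the CAPS protein of dense core vesicle release, had a call of 1 in both conditions. All 5 genes that overlap its span were also called in both, namely the snRNA genes ZK897.2, ZK897.3 and ZK897.4 and the ncRNA genes ZK897.8 and ZK897.9. Outside its span the nearest genes had no call, namely the piRNA gene 21ur-10098 (ZK897.5) and the protein-coding genes ZK897.10 and F07C6.3. snRNA genes encode the short RNAs of the spliceosome and related particles, and most are transcribed by RNA polymerase II. Among all protein-coding genes, 52 overlap an snRNA gene, and 26 of these 52 were called in both conditions, against the 16.8% given above for all protein-coding genes. Of the 29 that were called at all, 26 overlapped an snRNA gene of the same call category, as unc-31 did. A broad peak can call overlapping genes together, so this sharing does not show where the polymerase lay. Of all 3360 protein-coding genes called in both conditions, 84.0% lay beside or overlapped a gene of the same category, a wider measure. The genes that overlap an snRNA gene were compared after the call of unc-31 was seen, and gene length was not taken into account. Polymerase on the snRNA genes and polymerase on unc-31 itself cannot be told apart in the calls.

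**Figure D2:**
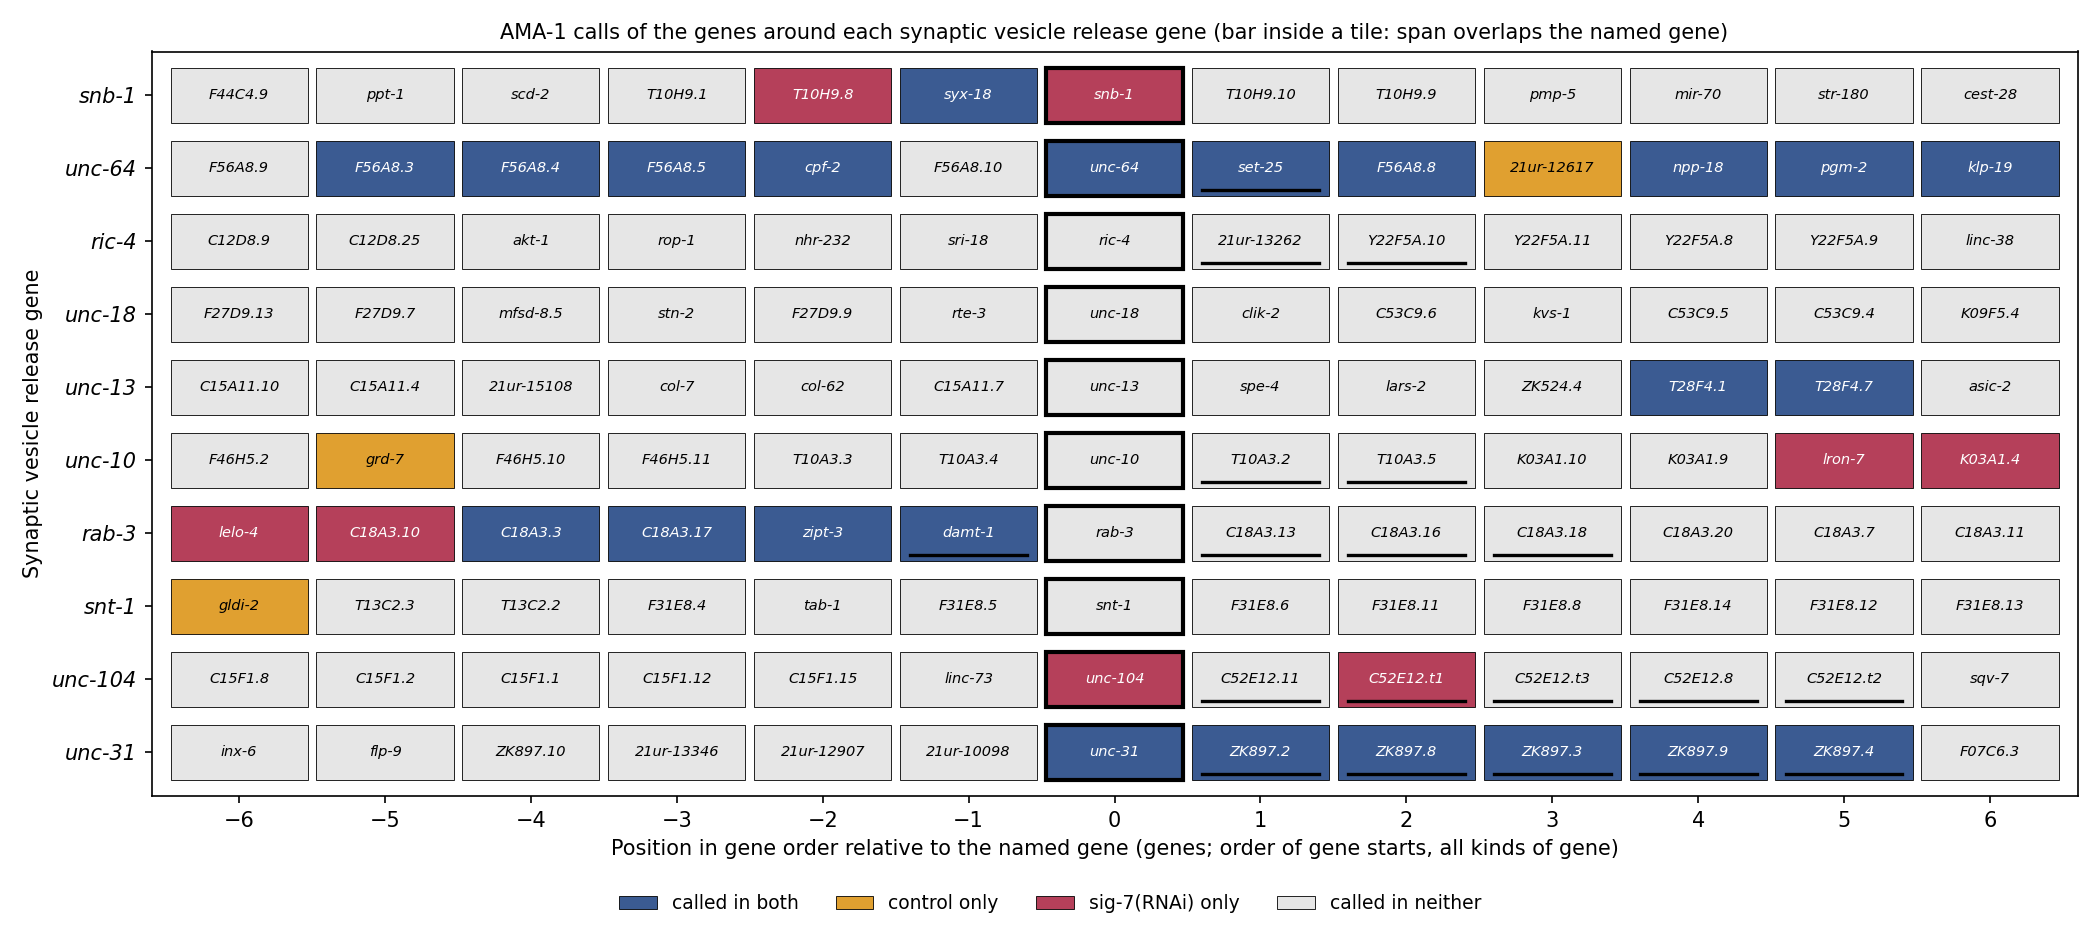
AMA-1 call categories of the 6 genes on either side of each synaptic vesicle release gene. Rows are the named genes (thick outline at position 0), the horizontal axis is the position in gene order, and a bar inside a tile marks a gene whose span overlaps that of the named gene. unc-64 stands among genes called in both conditions, the called genes in the windows of unc-31 and unc-104 overlap their spans, and ric-4 and unc-18 have no called gene in the window.

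Each of the 4 called genes therefore lay beside or overlapped another gene called in the same condition. A neighbour called in either condition, a looser measure, was usual among called genes. A gene of any kind called in either condition lay beside or overlapped 93.2% of the 3360 protein-coding genes called in both conditions and 82.7% of those called in sig-7(RNAi) only. For a neighbour of the same call category, a stricter measure, the shares were 84.0% and 54.7%.

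Calls were also counted in relatives of the synaptic fusion genes, most of which serve membrane traffic in many cells. Of 29 other SNARE, SM and NSF genes, 7 were called in both conditions, 4 only in control and 3 only in sig-7(RNAi). Those in both included the SNAP-25 relative snap-29, the alpha-SNAP gene snap-1, the VAMP gene vamp-7 and the SNARE genes gos-28, syx-17 and syx-18. ykt-6, syx-3, syx-6 and the SM gene vps-33.2 were called in control only. syx-7, nbet-1 and nsf-1, which encodes the ATPase that takes SNARE complexes apart, had a call only in sig-7(RNAi). The synaptobrevin relatives snb-2, snb-5 and snb-6 were called in neither condition. In this list 37.9% of genes were called in control and 34.5% in sig-7(RNAi), against 22.8% and 23.9% of all protein-coding genes. Calls in both, only in control and only in sig-7(RNAi) made up 24.1%, 13.8% and 10.3%, against 16.8%, 6.03% and 7.05%.

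Rab GTPases and kinesins outside the group were counted next. Of 22 other Rab genes, 8 were called in both conditions, among them rab-1 of traffic from the endoplasmic reticulum, rab-5 of early endosomes, rab-11.1 of recycling endosomes, and rab-18, rab-19 and rab-35. rab-8, rab-33 and rab-39 were called in control only, and rab-14 and glo-1, which encodes the Rab of gut granules, in sig-7(RNAi) only. The relative aex-6 (Rab27), which also acts in secretion, was called in neither, as rab-3 was. Of 18 other kinesin genes, 7 were called in both, including bmk-1, klp-7, klp-18 and klp-19 of the spindle, klp-12 and the kinesin-1 gene unc-116. klp-3, klp-11 and vab-8 were called in control only, and klp-16 and klp-6 in sig-7(RNAi) only. The Rab list had 11 genes called in control and 10 in sig-7(RNAi), and the kinesin list 10 and 9. Over all protein-coding genes the shares were the 22.8% and 23.9% given above. klp-6 is a kinesin-3 like unc-104, and klp-4, another one, was called in neither.

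Of 25 release regulators and active zone genes, 2 were called in both conditions, 2 only in control and 2 only in sig-7(RNAi), while 19 had no call. The synaptophysin gene sph-1 and the scaffold gene lin-7 were called in both. The liprin gene syd-2 and the scaffold gene lin-10 were called in control only. unc-2, the presynaptic calcium channel gene, and rbf-1, the rabphilin gene, had a call only in sig-7(RNAi). The complexin genes cpx-1 and cpx-2, the tomosyn gene tom-1 and the synapsin gene snn-1 were called in neither. With 4 of its 25 genes called in each condition, this list was near the share of all protein-coding genes.

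Of 16 genes for transmitter synthesis, loading and uptake, 0 were called in control and 3 in sig-7(RNAi). They were eat-4, the vesicular glutamate transporter gene, cat-1, the vesicular monoamine transporter gene, and mod-5, the serotonin reuptake transporter gene. The GABA genes unc-25, unc-46 and unc-47 were called in neither. The acetylcholine genes cha-1 and unc-17 were not looked up, because the gene table gives them no sequence name. Of 7 synaptotagmin relatives, snt-2 alone had a call, which was in sig-7(RNAi) only. Of the transmitter list 81.2% and of the synaptotagmin list 85.7% were called in neither condition, against 70.1% of all protein-coding genes. In control, 0.0% of each list was called, against 22.8%. In sig-7(RNAi), 18.8% of the transmitter list and 14.3% of the synaptotagmin list were called, against 23.9% of all protein-coding genes. These same shares were the sig-7(RNAi)-only shares of both lists, against 7.05% of all protein-coding genes. They rest on 3 genes and 1 gene.

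Calls in both conditions were frequent among transport and recycling genes, many of which also work outside neurons. They made up 53.3% of the transport list and 45.5% of the endocytosis list, against 16.8% of all protein-coding genes. Calls only in sig-7(RNAi) made up 13.3% and 18.2%, against 7.05%, and calls only in control 6.67% and 9.09%, against 6.03%. Of 15 genes of axonal transport and outgrowth, 8 were called in both, among them the dynein gene dhc-1, the dynactin gene dnc-1, the kinesin light chain gene klc-2 and unc-33, unc-44 and unc-16. unc-14 was called in control only. Calls only in sig-7(RNAi), like that of unc-104, were found for arl-8 and sam-4. Unlike unc-104, each of them lay beside or overlapped a gene called in both conditions. ARL-8 is a small GTPase of vesicle precursors and SAM-4 a subunit of the BORC complex that acts with it. Both are known to work with UNC-104 in the worm. Whether the calls of these genes are related was not tested. Of 11 vesicle endocytosis genes, 5 were called in both, namely the clathrin genes chc-1 and clic-1 and the adaptor genes aps-2, ehs-1 and itsn-1. The AP2 subunit gene apa-2 was called in control only. unc-26 (synaptojanin) and unc-41 (stonin) were called in sig-7(RNAi) only.

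Of 19 genes for dense core vesicles and the G protein control of release, 6 were called in both conditions, 1 only in control and 2 only in sig-7(RNAi). These shares were 31.6%, 5.26% and 10.5%, against 16.8%, 6.03% and 7.05% of all protein-coding genes. The heterotrimeric G protein genes egl-30, goa-1, gpb-1 and gpb-2 and their partner ric-8 were called in both, as was hid-1, a dense core vesicle gene like unc-31. The RGS gene eat-16 was called in control only. The diacylglycerol kinase gene dgk-1 and ric-7, needed for neuropeptide secretion, had a call only in sig-7(RNAi). The neuropeptide processing genes egl-3 and egl-21 were called in neither.

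**Figure D3:**
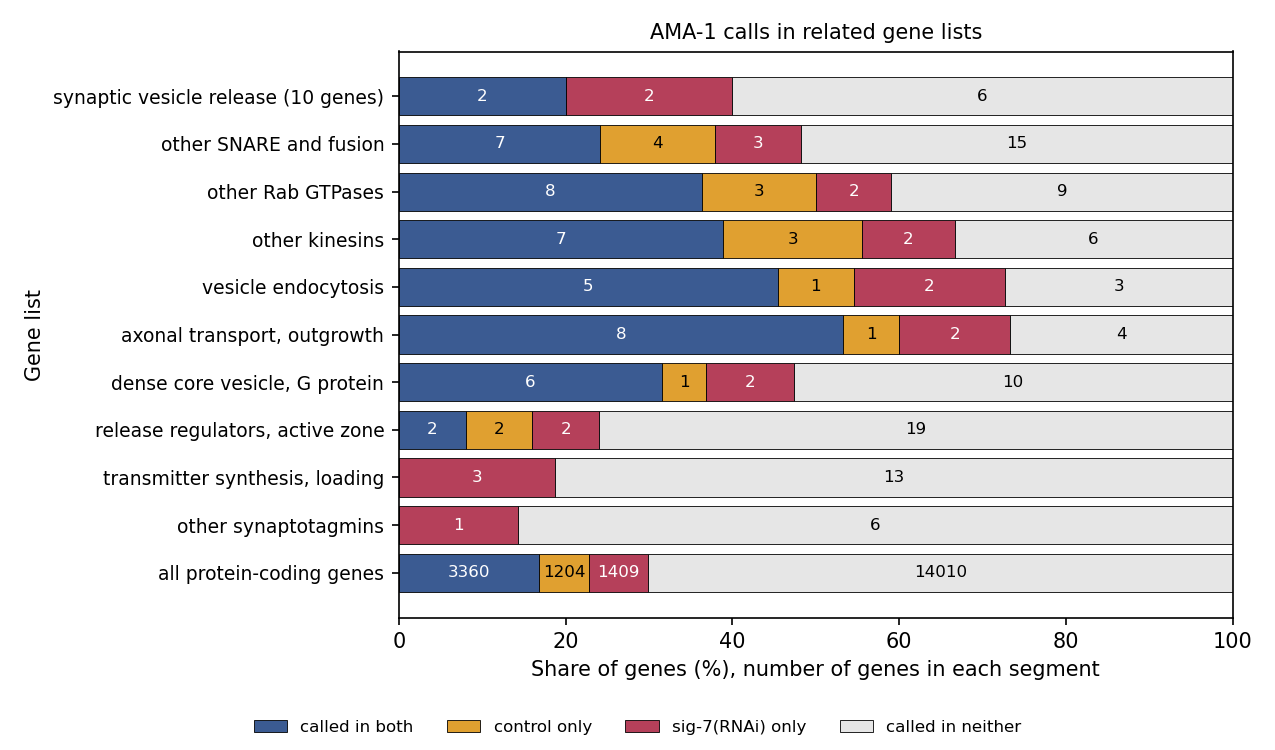
Share of genes in each AMA-1 call category (horizontal axis, percent) for the 10 synaptic vesicle release genes, the 9 related lists and all protein-coding genes. Numbers in the segments are counts of genes. Transport, endocytosis, kinesin and Rab genes have the longest segments called in both conditions, and the transmitter and synaptotagmin lists have none.

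Taken once each, the 9 related lists held 162 genes, of which 43 were called in both conditions, 15 only in control and 19 only in sig-7(RNAi). These were 26.5%, 9.26% and 11.7%, against 16.8%, 6.03% and 7.05% of all protein-coding genes. The shares called were 35.8% in control and 38.3% in sig-7(RNAi), against 22.8% and 23.9% of all protein-coding genes. Of the 10 synaptic vesicle release genes 20.0% and 40.0% were called. With this few genes, and with calls that merge the replicates, a shift of the group towards sig-7(RNAi) could not be tested.

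Calls of cell type markers went in different directions. Of 16 neuronal fate and pan-neuronal genes, the proneural gene hlh-3 was called in both conditions, and hlh-14, cnd-1 and rgef-1 in control only, opposite to snb-1 and unc-104. The pan-neuronal genes unc-119 and ric-19 and the neuronal identity genes unc-86, unc-3 and che-1 were among the 12 called in neither. Those 12 were 75.0% of the neuronal list, near the 70.1% of all protein-coding genes. Of 8 epidermal genes, 2 were called in both and 6 in control only. Of 8 muscle genes, 1 was called in both and 4 in control only, while hnd-1, unc-15 and tnt-2 were called in neither. All 7 intestinal genes, elt-2 and ges-1 among them, were called in neither. Of 8 germline genes, pie-1 and pos-1 were called in both and 4, namely mex-1, glh-1, mes-4 and gld-1, in sig-7(RNAi) only, while pgl-1 and nos-2 were called in neither. The part of cell type composition in the calls of snb-1 and unc-104 was not tested.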

How the data were processed

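AMA-1 ChIP-seq was given as 1 table of calls, in which the authors deposited a 0 or 1 per gene and condition. Per the file headers, MACS2 called broad peaks at a cutoff of 0.01. A gene counted when it overlapped a peak by 250 bp or 45% of its length. Per the file headers again, a call of 1 required this in both replicates. The submitters' processing notes name Bowtie 1.0.1 and build ce10. Not given in the sources used here are the annotation, the version of MACS2 and whether input was used. Depth is unknown.

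Of 8922 identifiers, 8824 matched the RefSeq gene table (WBcel235) without regard to case. Its build differs from that of the calls, so it gave only names, kinds of gene, gene order and which spans overlap. Unlisted genes were taken as called in neither condition. Members, 9 pathway lists and 5 marker lists were chosen with earlier results of these data known. For 6 listed symbols, apm-2 and opt-2 among them, the gene table had no protein-coding gene with a sequence name under that symbol. These were not looked up, and a gene entered there under another symbol would be missed. Named were all members, the nearest gene and protein-coding gene on either side, and of each list up to 6 genes per category in alphabetical order. Other genes, such as further neighbours and uncalled list genes, were named after their calls were seen. No test was made, since calls carry no replicate error. Counts were made with Python 3.11.15 and pandas 2.3.3, after a check on simulated calls. Alternatives changed how identifiers were matched and how neighbours were treated.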

Additional observations from a re-analysis of the deposited data

How the results depend on the processing

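Matching identifiers with case kept changed no count of called synaptic vesicle release genes. Removing isoform letters could change none, since 0 identifiers of the table carry one. Counting a gene only when no adjacent protein-coding gene was called in the same condition left 1 in control (unc-31) and 2 in sig-7(RNAi) (unc-31 and unc-104). Counting a gene also when the nearest gene on either side was called gave 4 in control and 5 in sig-7(RNAi), and 1 gene, unc-104, then differed between conditions. In a setting chosen after seeing the data, a gene counted only when no adjacent or overlapping gene of any kind was called with it. This left 0 in control and 0 in sig-7(RNAi), and 1 single-condition gene, snb-1, without a gene of the same call category beside it. Synaptic vesicle release genes with a called gene as the nearest on either side numbered 4, namely snb-1, unc-64, unc-31 and the uncalled rab-3. With protein-coding neighbours alone they numbered 5, namely snb-1, unc-64 and the uncalled snt-1, rab-3 and unc-10. Over all genes of the gene table in place of protein-coding genes, 14.4% were called in control and 13.9% in sig-7(RNAi). No paired analysis was possible because each call already combines both replicates, and leaving out a replicate was not run for the same reason.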

Other observations

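The genes of the 9 related lists that were called in a single condition differed in what lay beside them. Differences in the same direction were found over all protein-coding genes, so they are not particular to these lists. Of the 19 called in sig-7(RNAi) only, 8 lay beside or overlapped a gene called in both conditions, among them nsf-1, snt-2, unc-2, unc-26, arl-8 and sam-4, the same setting as that of snb-1. Of the 15 called in control only, 2 did, namely lin-10 and unc-14. A neighbour with the same single-condition call was found for 9 of the 19 and for 12 of the 15. Over all protein-coding genes, 39.5% of those called in sig-7(RNAi) only and 19.9% of those called in control only lay beside or overlapped a gene called in both. The shares with a neighbour of the same category were 54.7% and 59.1%. The difference between the lists' counts was not tested. The genes without any called neighbour included mod-5, glo-1 and klp-16, called in sig-7(RNAi) only, and vab-8, called in control only.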
